A study of Homo sapiens with 24 samples.

Results

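The comparison described here is tamoxifen against vehicle, each given for 1 h to T47D cells in complete medium, and it takes 8 of the 24 libraries of the series, 4 per group. T47D cells are a long-standing human luminal breast cancer line with an active estrogen receptor, and open chromatin was mapped by ATAC-seq, a method that cuts and tags accessible DNA with the transposase Tn5. Cells of the tamoxifen group received 100 nM tamoxifen and cells of the vehicle group 0.1% DMSO, after 1 day in medium with 10% serum. The other groups of the series were raloxifene and fulvestrant at the same dose and time in the same medium, and estradiol (1 nM) and its own vehicle for 1 h in cells starved of hormone. Each library is a count in each of 189403 peaks of genome build hg38, of which 156745 passed the low-count filter and were tested. The tamoxifen libraries held 8065848, 6725045, 7489274 and 9871575 counts, against 9618550, 7771382, 10225935 and 7117770 in the vehicle libraries.

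The labels disagree for 2 of the vehicle libraries. Replicates 3 and 4 of the vehicle are named DMSO in their titles, and their treatment entry gives 100 nM fulvestrant. They were grouped by title, and the main counts and medians are also given without them, a choice made after seeing the data for the medians. Replicates 3 and 4 also stood apart from replicates 1 and 2 in every complete-medium group in their share of counts in estradiol-responsive peaks, so the main results are also given by pair. Without the 2 vehicle libraries the pairs are not balanced, so the difference between the pairs enters those values. Beyond the treatment entry of the vehicle, the labels name nothing that separates the pairs. Nothing in the labels says that replicates came from separate cultures, so p-values measure only the spread between these libraries. At the promoters of 10 of 15 luminal identity genes, among them ESR1, FOXA1 and GATA3, the libraries had a tested peak, with a summed 448 to 474 CPM (counts scaled to library size) in the tamoxifen libraries and 430 to 475 CPM in the vehicle libraries. The promoters of the luminal genes KRT18, KRT19, TFAP2C and CDH1 had none. Of 12 basal and mesenchymal markers, 3 had a promoter peak (ZEB1, FN1 and EGFR), with a summed 33.4 to 36.6 CPM in the tamoxifen libraries and 35.2 to 36.7 CPM in the vehicle libraries, and KRT5, KRT14 and TP63, which define basal cells, had none. Of 10 blood cell markers, 2 had one (CD14 and CD68), with 17.9 to 21.2 CPM in the tamoxifen libraries and 17.2 to 23.1 CPM in the vehicle libraries, and PTPRC, which defines leukocytes, had none. GRHL2 and SNAI2 count among those without a peak because promoter windows of chromosome 8 were not used here.

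Tamoxifen is a selective estrogen receptor modulator. It occupies the hormone pocket of the receptor in place of estradiol and holds the last helix of the ligand-binding domain in a position that blocks the coactivator surface, and in breast cells it acts mostly as an antagonist. The drug itself binds weakly, and its liver metabolites 4-hydroxytamoxifen and endoxifen bind far more tightly. The receptor binds palindromic DNA elements, most of them in distal enhancers that pioneer factors such as FOXA1 and GATA3 have already opened. Serum and phenol red carry estrogenic activity, so cells in complete medium are not free of hormone.

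DNA was read only for the few estradiol-responsive peaks that overlap a promoter window, and these do not stand for the rest. Of the 1274 peaks that estradiol raised in starved cells, 23 overlapped a promoter window (250 bases before to 50 after a gene start, RefSeq, GRCh38.p14), 28 windows in all. The palindrome searched was GGTCA, any 3 bases, then TGACC, which reads the same on both strands. It stood in 20 of 35116 windows (0.057%), 1 of them among the 28, and with at most 1 mismatch in 287 (0.817%), 10 of them among the 28. The rest of the 28 had no such match, and DNA outside promoter windows was not searched. These are counts of windows, which can overlap, and not of separate sites. The MICOS10-DT, MICOS10-NBL1 and MICOS10 windows share 1 motif, and the LINC02658 and LOC105378275 windows share another. A match is a description of the letters and no evidence that the receptor sits there. The palindrome or its near match is in capitals in 3 of these windows, chosen because 1 holds the full palindrome and the others lie in strongly covered peaks.
LINC02130, chr16:14370217-14370516, minus strand: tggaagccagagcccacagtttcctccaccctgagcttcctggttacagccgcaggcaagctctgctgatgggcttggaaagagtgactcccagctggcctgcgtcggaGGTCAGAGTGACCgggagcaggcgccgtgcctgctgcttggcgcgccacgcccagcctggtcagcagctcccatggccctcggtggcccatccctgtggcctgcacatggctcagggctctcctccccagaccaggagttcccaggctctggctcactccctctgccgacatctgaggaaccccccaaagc
LOC105371934 (inside RARA), chr17:40322475-40322774, minus strand: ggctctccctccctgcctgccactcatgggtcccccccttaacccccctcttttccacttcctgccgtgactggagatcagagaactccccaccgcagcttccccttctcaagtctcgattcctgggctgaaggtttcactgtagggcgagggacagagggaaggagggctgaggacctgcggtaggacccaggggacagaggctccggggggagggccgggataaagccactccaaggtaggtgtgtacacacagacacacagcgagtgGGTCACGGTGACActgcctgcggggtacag
C5AR2, chr19:47336845-47337144, plus strand: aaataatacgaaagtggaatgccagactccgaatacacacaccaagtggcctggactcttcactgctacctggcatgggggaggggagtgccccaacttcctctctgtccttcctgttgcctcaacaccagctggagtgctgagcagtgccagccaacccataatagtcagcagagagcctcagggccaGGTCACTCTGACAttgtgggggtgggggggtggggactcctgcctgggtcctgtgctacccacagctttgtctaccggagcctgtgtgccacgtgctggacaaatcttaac
Aligned alone, with the bases that match the palindrome in capitals, the motifs of these windows and of 2 further peaks compare as follows.
LINC02130: GGTCAgagTGACC
LOC105371934: GGTCAcggTGACa
C5AR2: GGTCActcTGACa
SRRM2-AS1: GGTCActcTGcCC
MICOS10-DT: GGTgAcccTGACC
Counted from 1 at the first base of the palindrome, the substitutions are C13A at LOC105371934 and at C5AR2, A11C at SRRM2-AS1 and C4G at MICOS10-DT, and all 5 motifs lie inside their peak.

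None of the peaks over these motifs changed with tamoxifen by the test. The LINC02130 peak, with the full palindrome 21 bases from its middle, had 37.1, 38.1, 32.1 and 31.6 CPM in the tamoxifen libraries, against 34.6, 28.5, 36.5 and 29.8 CPM in the vehicle libraries. The groups overlapped, and the log2 fold change was 0.08 with a 95% interval of -0.14 to 0.30, where estradiol had raised the peak by 1.13 in starved cells. At the RARA site, where the motif sits 1 base from the middle of the peak, the values were 89.0, 96.4, 75.0 and 86.4 CPM with tamoxifen and 96.9, 86.0, 87.1 and 86.8 CPM with vehicle. RARA, the retinoic acid receptor alpha gene, is an estrogen-induced gene, and the log2 fold change of its peak was -0.04 ± 0.10 (SE) with tamoxifen and 1.28 with estradiol. The C5AR2 peak, at a complement receptor gene, stood at -0.01 with an interval of -0.24 to 0.22, at 0.20 in replicates 1 and 2 and at -0.20 in replicates 3 and 4. Over all promoter windows, the 76 tested peaks with at most 1 mismatch had a median log2 fold change of 0.04, and the 12402 window peaks without such a match also had 0.04. In replicates 1 and 2 the medians were 0.12 with such a match and 0.09 without, and in replicates 3 and 4 they were -0.03 and -0.02.

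No peak passed the test for tamoxifen against vehicle. In edgeR's quasi-likelihood test with Benjamini-Hochberg adjustment, 0 of 156745 peaks were higher (0%) and 0 were lower (0%), and the smallest adjusted p was 1. At an unadjusted p under 0.05 there were 6479 peaks (4.13%), and DESeq2 also called 0 peaks, with 4205 at an unadjusted p under 0.05. The 4 tamoxifen libraries lay all above the 4 vehicle libraries in 2160 peaks (1.38%) and all below them in 2183 (1.39%). In 100949 peaks (64.4%) the 95% interval of the fold change stayed inside 2-fold in both directions. With peaks split into 4 equal bins of abundance, that share was 12.7% in the least abundant bin and 99.6% in the most abundant one, so low peaks could hide larger changes at this depth.

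The peaks with the smallest p were low in counts, and none of them passed. The one with the smallest p among the lower ones lies 265 kb from the nearest annotated protein-coding gene, at chr6:141421460-141421660, and had 0.262, 0, 0 and 0 CPM in the tamoxifen libraries, against 1.62, 1.69, 0.412 and 1.46 CPM in the vehicle libraries. The groups did not overlap, but the tamoxifen values rest on a handful of reads. A peak 87.1 kb from PLSCR5, a gene of the phospholipid scramblase family, had 0.262, 0.630, 0.409 and 0.532 CPM with tamoxifen and 1.62, 2.73, 1.85 and 1.75 CPM with vehicle. Inside OASL, an interferon-induced gene, a peak had 0.392, 0.315, 0.546 and 0.426 CPM with tamoxifen and 1.73, 1.95, 2.16 and 0.730 CPM with vehicle. Among the higher ones, a peak 3.18 kb from RUBCNL, a regulator of autophagy, had 1.70, 3.31, 1.64 and 1.28 CPM with tamoxifen and 0.541, 0.390, 0.514 and 0.292 CPM with vehicle, a log2 fold change of 2.04 ± 0.49 (SE) with an adjusted p of 1 in edgeR. A peak inside CD2, which encodes a T-cell adhesion molecule, had 4.18, 3.31, 4.09 and 6.07 CPM with tamoxifen and 2.60, 0.910, 2.16 and 2.77 CPM with vehicle, a log2 fold change of 1.10 ± 0.27. All tamoxifen values of both of these peaks exceeded all vehicle values, as in 2160 peaks overall.

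Peaks that respond to estradiol were chosen in the starved libraries, which do not enter the tamoxifen comparison. There estradiol raised 1274 peaks (0.813%) and lowered 35 (0.0223%). They took 1.60%, 1.64%, 1.42% and 1.42% of the counts of the tamoxifen libraries, replicates 1 to 4, against 1.64%, 1.61%, 1.57% and 1.56% in the vehicle libraries. Tamoxifen replicates 1 and 2 lay among the vehicle values, and replicates 3 and 4 lay below all of them. For scale, the share was 1.40% to 1.56% in starved cells given estradiol and 0.698% to 0.729% in starved cells given vehicle. The mean share was 1.52% ± 0.121 in the tamoxifen libraries and 1.60% ± 0.0364 in the vehicle libraries (SD, n = 4 each). The log2 difference of the shares was -0.074 (-4.98%) over all replicates. The pooled SD of single libraries was 0.084 on the log2 scale, and it includes the difference between the pairs. The log2 difference was -0.0028 (-0.193%) in replicates 1 and 2 and -0.144 (-9.53%) in replicates 3 and 4. Without tamoxifen replicate 3 or replicate 4 the difference over the rest was -0.041 in either case, and without tamoxifen replicate 2 it was -0.113.

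**Figure D1:**
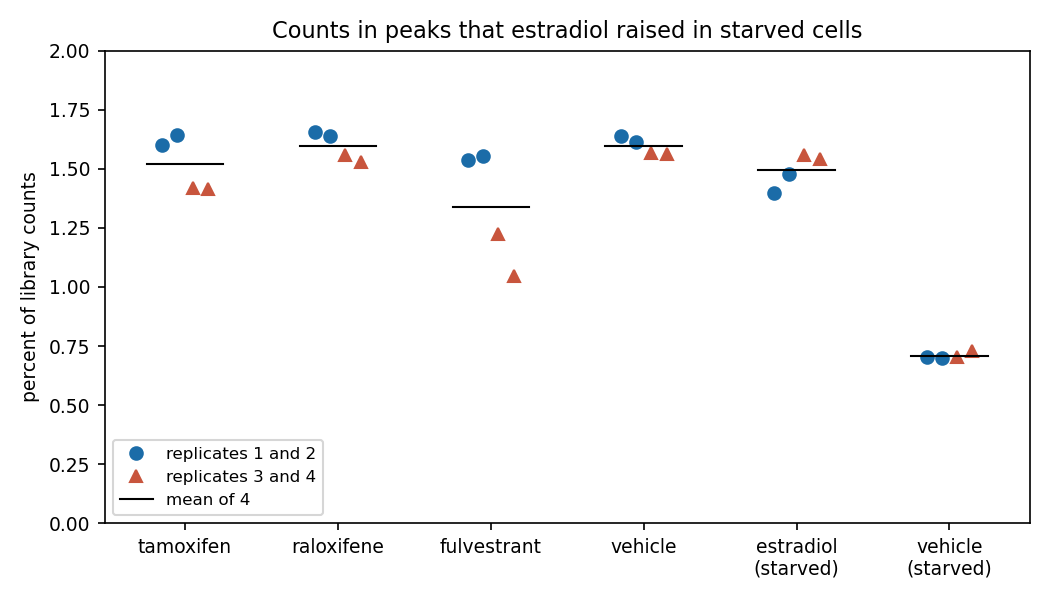
Percent of each library's counts in tested peaks that lay in the 1274 estradiol-raised peaks, by group, with circles for replicates 1 and 2, triangles for replicates 3 and 4 and a line at the mean of 4. Tamoxifen replicates 3 and 4, at 1.42%, sit below all 4 vehicle libraries of complete medium, while tamoxifen replicates 1 and 2 sit among them.

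The contrast within replicates 3 and 4 rests wholly on the vehicle libraries with conflicting labels. Fulvestrant replicates 3 and 4 had shares of 1.23% and 1.04% and raloxifene replicates 3 and 4 had 1.56% and 1.53%, against 1.57% and 1.56% in these vehicle libraries. The 1.04% comes from fulvestrant replicate 4, which held only 434598 counts. Against vehicle replicates 1 and 2 alone, the log2 difference of all 4 tamoxifen libraries was -0.101, an alternative added after the data were seen. It is not balanced by pair, since tamoxifen replicates 3 and 4 enter and those of vehicle do not. Which treatment vehicle replicates 3 and 4 received was not tested. Promoter peaks, set beside as a measure of library composition, took 28.2%, 27.6%, 27.4% and 28.1% of counts with tamoxifen and 27.2%, 26.3%, 28.0% and 27.6% with vehicle. That is a difference of 0.063 on the log2 scale in replicates 1 and 2 and -0.0049 in replicates 3 and 4, and its part in the result was not tested.

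Peak by peak, 0 of the 1274 estradiol-raised peaks were called with tamoxifen. Their median log2 fold change was -0.07, with 65.7% of them below 0, against 0.00 and 49.6% over all tested peaks. In replicates 1 and 2 the median was 0.02 with 47.2% below 0, and in replicates 3 and 4 it was -0.17 with 72.8% below 0. With all 4 tamoxifen libraries set against vehicle replicates 1 and 2 alone, the median was -0.10 with 65.7% below 0, beside 0.01 and 48.7% over all tested peaks. That comparison is not balanced by pair. Over both groups, the raised peaks had a median difference of -0.16 for replicates 3 and 4 against 1 and 2. The difference in the tamoxifen effect between the pairs was not called in any peak (0 of 156745 by edgeR, 8579 at an unadjusted p under 0.05, and 0 by DESeq2). Its median over the raised peaks was -0.20. The groups failed to overlap downward in 32 of the raised peaks (2.51%) and upward in 7 (0.549%), beside 1.39% and 1.38% of all tested peaks.

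Abundance moved with the fold change, so the raised peaks were also set beside peaks of like abundance. From the least to the most abundant bin, the median over all tested peaks was -0.05, -0.02, 0.00 and 0.02, and over the raised peaks -0.15, -0.10, -0.08 and -0.06. In the most abundant bin, with 625 raised peaks, the raised median was 0.04 in replicates 1 and 2 and -0.16 in replicates 3 and 4, beside 0.07 and -0.02 over all peaks of that bin. In 4 bins from the weakest to the strongest response to estradiol, the median was -0.05, -0.08, -0.09 and -0.08 over all replicates. In replicates 1 and 2 it was 0.03, 0.01, -0.00 and 0.01, and in replicates 3 and 4 it was -0.14, -0.18, -0.19 and -0.20, lower in each stronger bin. The difference of replicates 3 and 4 from 1 and 2, over both groups, also fell with each stronger bin. Its medians were -0.08, -0.14, -0.22 and -0.28. Abundance was not held fixed across these bins. The 35 estradiol-lowered peaks had a median of -0.13 with 0 called.

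The tamoxifen intervals were set beside the size of the estradiol response in starved cells. In 1255 of the 1274 raised peaks (98.5%) the lower end of the 95% interval for tamoxifen lay above minus the estradiol log2 fold change of that peak, and in 1069 (83.9%) the interval stayed inside 2-fold. The peaks were chosen on that estradiol value, which came from another medium and entered without its own interval. The 98.5% is therefore a description only. Estradiol-raised peaks were mostly distal: of those on chromosomes with promoter windows, 1.9% overlapped such a window, against 8.41% of all tested peaks there.

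**Figure D2:**
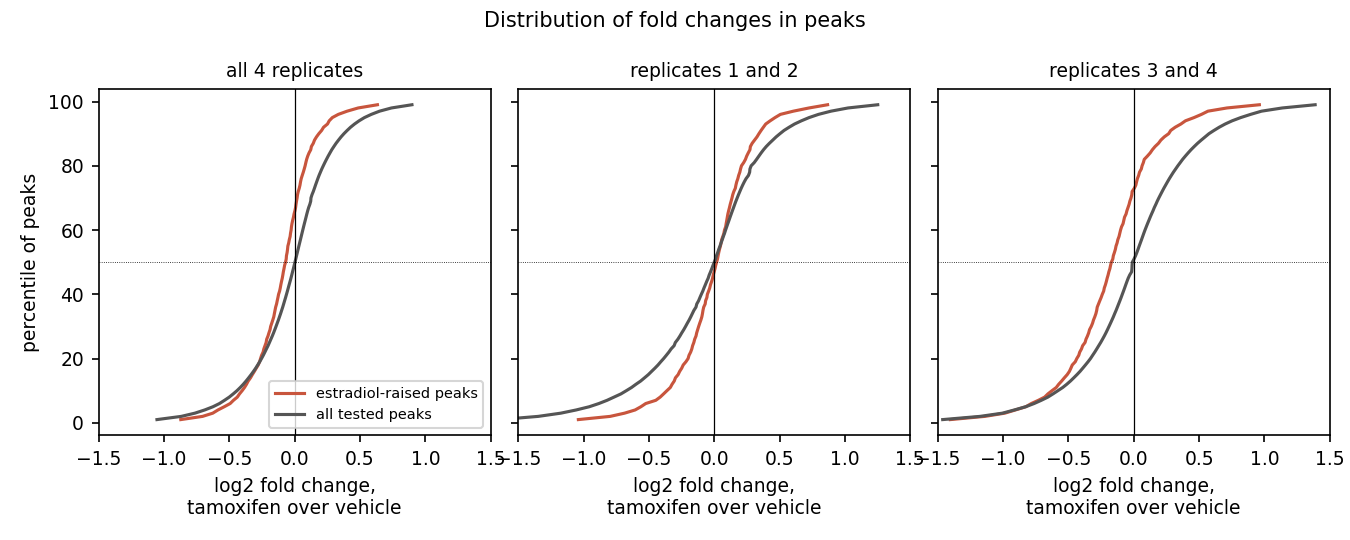
Percentile of peaks (vertical axis) against the log2 fold change of tamoxifen over vehicle (horizontal axis) for estradiol-raised peaks and for all tested peaks, in all 4 replicates, in replicates 1 and 2 and in replicates 3 and 4. The curve of the raised peaks crosses the 50th percentile at -0.07, 0.02 and -0.17 in the 3 panels.

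Near estrogen-induced genes, no peak changed with tamoxifen by the test. The list holds 30 genes, and 789 tested peaks lie within 50 kb of them, of which 0 were called with tamoxifen; 66 of the 789 were estradiol-raised. For each gene the peak with the smallest p for estradiol was taken, and in 21 of 30 genes that peak was estradiol-raised. Of these 21 peaks, 17 had a tamoxifen log2 fold change below 0, with a range of -0.29 to 0.27 and a median of -0.09. In replicates 1 and 2 the count below 0 was 8 of 21, and in replicates 3 and 4 it was 20 of 21. Against vehicle replicates 1 and 2 alone, which is not balanced by pair, it was 16 of 21. Their p-values did not pass in any case, and the direction in replicates 3 and 4 rests on the vehicle libraries with conflicting labels.

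The receptor's most used target genes are among them. GREB1 encodes a receptor cofactor that estrogen induces, and its peak at chr2:11531048-11531281, inside the gene, had 36.1, 34.3, 27.1 and 30.8 CPM with tamoxifen and 34.5, 34.2, 36.3 and 33.1 CPM with vehicle. Replicates 3 and 4 of tamoxifen were the lowest of the 8, and the log2 fold change was -0.11 ± 0.12 (SE) with tamoxifen, where estradiol had raised the peak by 2.03. PGR encodes the progesterone receptor, and its peak at chr11:101034171-101034404 had 36.4, 35.1, 31.0 and 35.7 CPM with tamoxifen and 32.0, 34.8, 35.1 and 36.8 CPM with vehicle. The groups overlapped throughout, with an interval of -0.23 to 0.23 around a fold change of 0.00. TFF1, a secreted trefoil peptide and a classic estrogen target, had its best peak at -0.16 with an interval of -0.56 to 0.23, beside 1.72 with estradiol.

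Among the other induced genes, the ADCY9 peak was the one of the 21 whose 95% interval left out 0. Against vehicle replicates 1 and 2 alone, which is not balanced by pair, that interval was -0.60 to 0.005 and included 0. ADCY9 encodes an adenylyl cyclase, and the peak, 36.0 kb from the gene at chr16:4152339-4152569, had 36.4, 43.3, 33.4 and 31.2 CPM with tamoxifen and 46.5, 41.2, 41.2 and 43.2 CPM with vehicle. Tamoxifen replicates 1, 3 and 4 lay below all vehicle libraries and replicate 2 did not, and the log2 fold change was -0.27 ± 0.11 (SE) with an interval of -0.50 to -0.04 and an adjusted p of 1 in edgeR. The peak in ZMIZ1, a coactivator of the PIAS family and the gene with the smallest estradiol p of the list, had 52.0, 45.5, 46.9 and 44.5 CPM with tamoxifen and 52.2, 45.2, 49.5 and 53.7 CPM with vehicle. Its log2 fold change was -0.09 with an interval of -0.29 to 0.11, against 2.77 with estradiol. SIAH2, a ubiquitin ligase, stood at -0.11, SGK3, a kinase, at -0.06, XBP1, a factor of the secretory stress response, at -0.18, and CA12, a carbonic anhydrase, at -0.18. The highest value of the 21, CELSR2, a cadherin, was 0.27 with an interval of -0.16 to 0.70, and the lowest, ELOVL2, a fatty acid elongase, was -0.29 with an interval of -1.06 to 0.49.

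**Figure D3:**
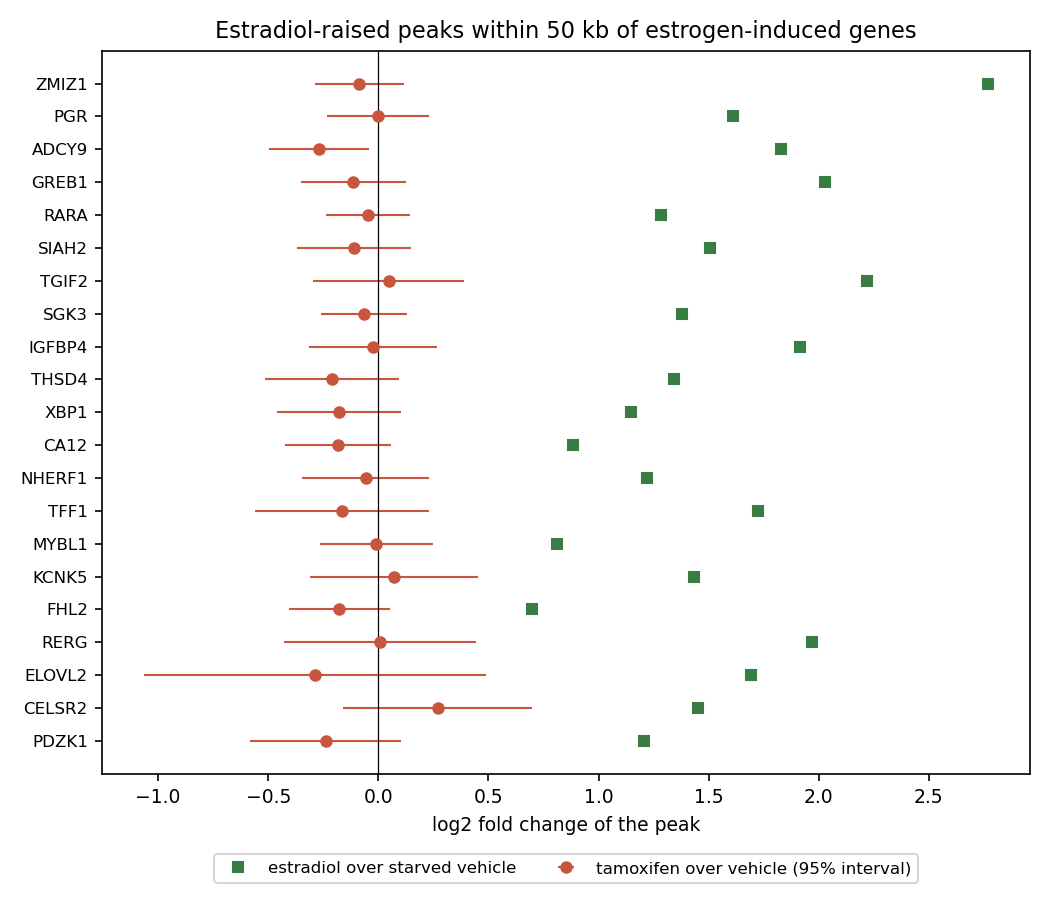
Log2 fold change of the 21 estradiol-raised peaks chosen 1 per gene within 50 kb of estrogen-induced genes, with circles and 95% intervals for tamoxifen over vehicle and squares for estradiol over starved vehicle. The tamoxifen values lie between -0.29 and 0.27, and all lie left of the estradiol value of the same peak.

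**Figure D4:**
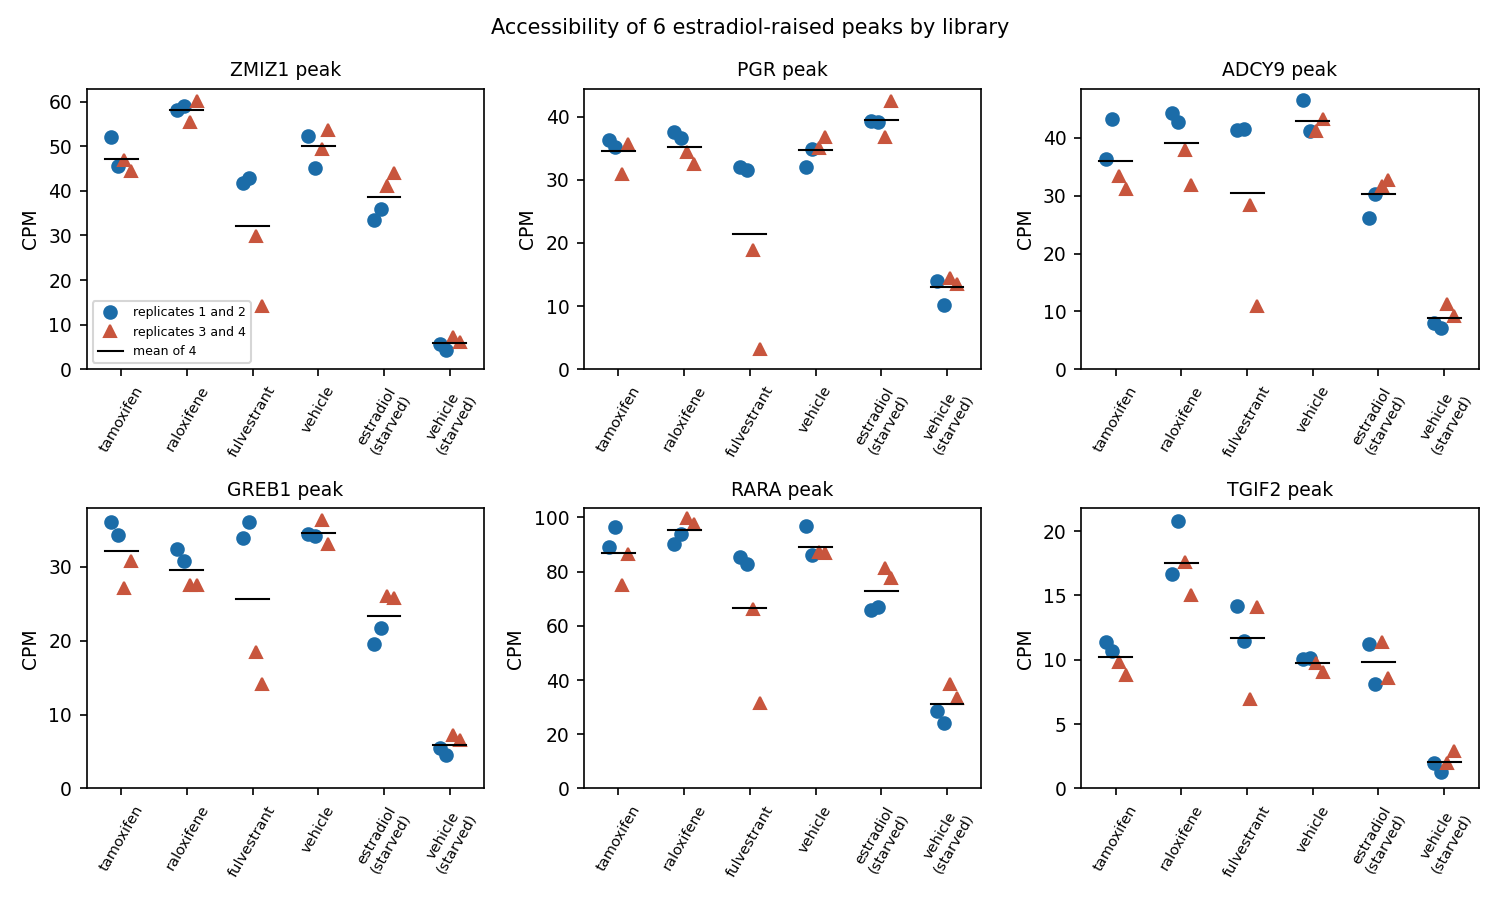
CPM of 6 estradiol-raised peaks in each library by group, with circles for replicates 1 and 2, triangles for replicates 3 and 4 and a line at the mean. In the GREB1 panel tamoxifen replicates 3 and 4, at 27.1 and 30.8 CPM, lie below the vehicle libraries, and in the TGIF2 panel the 4 raloxifene libraries, at 15.01 to 20.8 CPM, lie above all tamoxifen and vehicle libraries.

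A few raised peaks had all tamoxifen libraries below all vehicle libraries, and they were named after their values were seen. A second peak inside PGR, at chr11:101049168-101049568, had 1.18, 0.630, 1.23 and 1.38 CPM with tamoxifen and 2.27, 2.21, 1.54 and 2.77 CPM with vehicle. In MYB, a proto-oncogene that estrogen induces in breast cancer cells, a peak had 9.94, 8.19, 8.18 and 9.15 CPM with tamoxifen and 13.8, 10.7, 12.2 and 10.7 CPM with vehicle, a log2 fold change of -0.42 ± 0.16 (SE). A peak in CDK6, a kinase of the cell cycle, had 3.79, 4.25, 4.37 and 3.30 CPM with tamoxifen and 5.41, 5.20, 5.66 and 4.96 CPM with vehicle, a log2 fold change of -0.46 ± 0.24. In the opposite direction, a peak inside CCR6, a chemokine receptor gene, had 21.6, 22.5, 19.9 and 18.6 CPM with tamoxifen and 17.4, 17.4, 16.2 and 16.8 CPM with vehicle, a log2 fold change of 0.28 ± 0.14. Such peaks numbered 32 below (2.51% of the raised peaks) and 7 above (0.549%), beside 1.39% and 1.38% of all tested peaks. None of the 39 passed the adjusted test.

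Genes that mark luminal identity had 400 tested peaks within 50 kb, 0 of them called, with a median log2 fold change of -0.01 and 54.5% below 0, and against vehicle replicates 1 and 2 alone the median was 0.04. A KRT8 peak, near a luminal keratin gene, had 40.01, 42.7, 40.2 and 41.0 CPM with tamoxifen and 44.4, 39.4, 48.9 and 43.9 CPM with vehicle. An estradiol-raised peak within 50 kb of ESR1, which encodes the receptor, lies inside the neighbouring gene CCDC170 and stood at -0.03 with an interval of -0.33 to 0.26. A GRHL2 peak, in a gene for an epithelial transcription factor, stood at 0.14, and a peak near MLPH, a melanosome transport protein gene, at 0.10. Estrogen-repressed genes had 163 peaks, 0 called, with a median of 0.01 and 47.9% below 0.

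The proteins that the receptor recruits were looked at next. Receptor coregulator genes had 324 peaks, 0 called, with a median of 0.01. Tamoxifen also binds sterol enzymes, and the cholesterol synthesis list had 190 peaks, 0 called, with a median of 0.02. Its estradiol-raised peak lies 12.97 kb from SC5D, a sterol desaturase gene, with 8.24, 6.46, 6.96 and 7.98 CPM with tamoxifen and 7.68, 6.76, 9.98 and 10.2 CPM with vehicle. The log2 fold change there was -0.21 with an interval of -0.57 to 0.15, -0.63 with raloxifene and -0.62 with fulvestrant; these contrasts share the vehicle libraries. With tamoxifen it was 0.03 in replicates 1 and 2 and -0.42 in replicates 3 and 4, and 0.05 against vehicle replicates 1 and 2 alone.

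Drug metabolism and aryl hydrocarbon receptor genes had 138 peaks, 0 called, with a median of 0.01. NQO1 encodes a quinone reductase of the antioxidant response, and a peak 6.09 kb from it had 2.22, 3.78, 1.77 and 1.17 CPM with tamoxifen and 5.84, 4.68, 2.78 and 3.07 CPM with vehicle. The groups overlapped only through tamoxifen replicate 2, and the log2 fold change was -0.95 ± 0.33 (SE) with an adjusted p of 1 in edgeR. A peak in AHR, the dioxin receptor gene, stood at -0.72 with an interval of -1.35 to -0.08. TIPARP, a target of that receptor, had a peak 36.8 kb away at -0.05.

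Genes linked to tamoxifen resistance had 403 peaks, 0 called, with a median of -0.01. The peak in EGFR, a growth factor receptor gene, had 29.9, 35.3, 27.4 and 26.5 CPM with tamoxifen and 33.6, 29.2, 32.0 and 30.8 CPM with vehicle, and the peak in IGF1R, another growth factor receptor gene, stood at -0.15 with tamoxifen and 2.64 with estradiol. Immediate early genes, which respond within minutes to many stimuli, had 259 peaks, 0 called, with a median of 0.00, 0.07 in replicates 1 and 2 and -0.08 in replicates 3 and 4. A JUN peak, 31.3 kb from the gene of that AP-1 subunit, had 22.8, 21.3, 20.3 and 20.3 CPM with tamoxifen and 22.6, 18.5, 22.6 and 18.7 CPM with vehicle. The estradiol-raised peaks taken for MAFF and EGR3 stood at 0.17 and -0.05. Peaks taken for KLF6 (-0.71, interval -1.25 to -0.17) and JUNB (0.39, interval 0.04 to 0.73) had intervals without 0, in opposite directions. Against vehicle replicates 1 and 2 alone the KLF6 interval was -1.24 to 0.09 and included 0. The medians of the other lists were 0.02 for the unfolded protein response (171 peaks), -0.01 for replication and the cell cycle (178), -0.05 for basal and mesenchymal markers (194), 0.05 for blood cell markers (105) and 0.00 for housekeeping genes (194), each with 0 called. Over all the lists, the medians lay between -0.02 and 0.07 in replicates 1 and 2, and between -0.08 and 0.02 in replicates 3 and 4. Against vehicle replicates 1 and 2 alone they lay between -0.06 (estrogen-induced genes) and 0.08 (unfolded protein response and blood cell markers). The median near estrogen-induced genes, -0.05, was as low as that near basal and mesenchymal markers.

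More peaks were called between the pairs of replicates than between tamoxifen and vehicle. Over the tamoxifen and vehicle libraries together, replicates 3 and 4 were higher than replicates 1 and 2 in 359 peaks (0.229%) and lower in 876 (0.559%), by edgeR's quasi-likelihood test with Benjamini-Hochberg adjustment. DESeq2 called 512 in all. Peaks near the heat shock gene HSPA8, a constitutive chaperone of the HSP70 family, led the higher ones. The peak at chr11:123053247-123053447, 4.14 kb from the gene, had 1.18, 1.58, 18.8 and 18.4 CPM in tamoxifen replicates 1 to 4 and 1.73, 3.64, 12.8 and 12.3 CPM in vehicle replicates 1 to 4. Both groups split the same way, with a log2 difference of 3.01 ± 0.21 (SE) and an adjusted p of 8.59e-26 in edgeR. A peak 3.14 kb from HSP90AA1, an inducible HSP90 gene, differed by 1.36.

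Peaks near estrogen-induced genes were among the lower ones. The peak 0.25 kb from STC2, a secreted glycoprotein that estrogen induces, had 45.9, 53.7, 22.4 and 22.1 CPM in tamoxifen replicates 1 to 4 and 52.8, 44.2, 34.1 and 28.5 CPM in vehicle replicates 1 to 4, a log2 difference of -0.89 ± 0.10 (SE) between the pairs. A peak 6.19 kb from IGFBP4, which encodes a binding protein for insulin-like growth factors, had 7.58, 11.97, 3.14 and 2.13 CPM with tamoxifen and 10.7, 13.3, 4.63 and 3.79 CPM with vehicle, and differed by -1.68 ± 0.21. Peaks inside GREB1 at chr2:11629538-11630259 and chr2:11588299-11588664 differed by -1.31 and -1.30. In all of these peaks both libraries of replicates 3 and 4 lay below both of replicates 1 and 2 in each group. Of the 789 peaks near estrogen-induced genes, 26 were lower in replicates 3 and 4 and 0 were higher, and of the 1274 estradiol-raised peaks 59 were lower (4.63%) and 0 were higher, beside 0.559% and 0.229% of all tested peaks. Such calls were more frequent in abundant peaks. In the most abundant bin, 6.88% of the raised peaks were lower, beside 1.40% of all tested peaks of that bin. In the tamoxifen group the labels name no difference between the pairs, and in the vehicle group only the treatment entry differs.

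**Figure D5:**
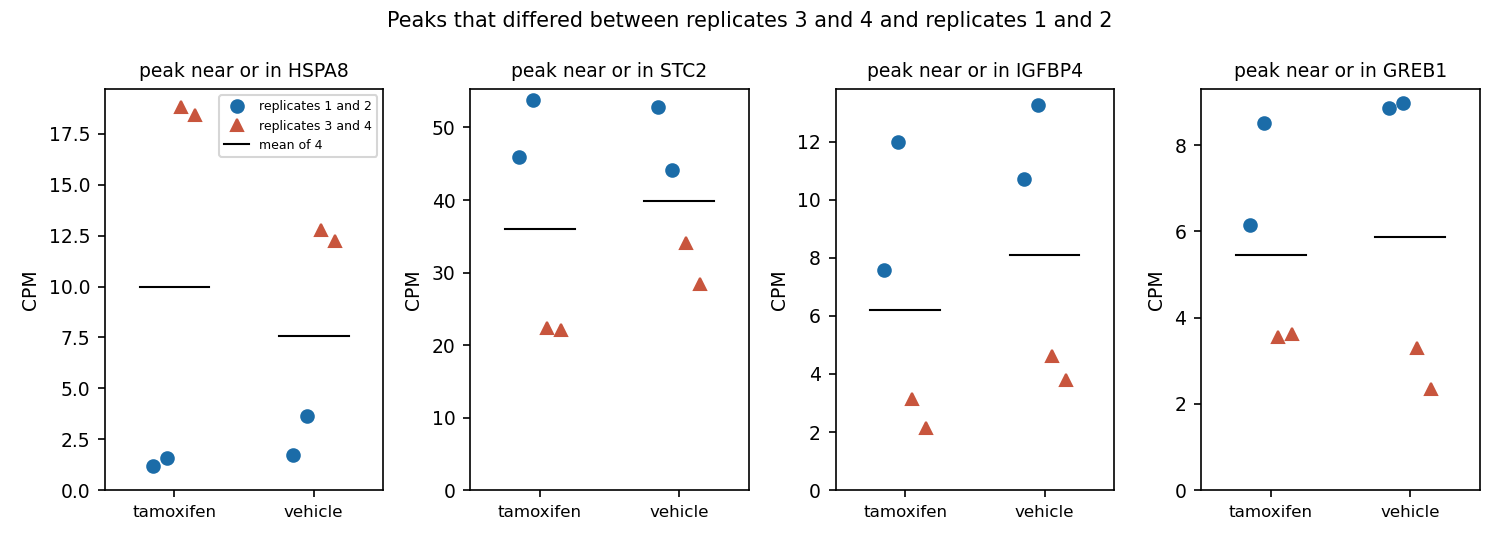
CPM in tamoxifen and vehicle libraries of 4 peaks that differed between the pairs of replicates, with circles for replicates 1 and 2, triangles for replicates 3 and 4 and a line at the mean of 4. The HSPA8 peak is at 12.3 to 18.8 CPM in replicates 3 and 4 and at 1.18 to 3.64 CPM in replicates 1 and 2, and the STC2, IGFBP4 and GREB1 peaks are lower in replicates 3 and 4.

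The effect of tamoxifen was not shown to differ between the pairs at any single peak. The smallest p-values for that difference were at peaks in SCARA3, near KRT19 and in CTCF. The CTCF peak, inside the gene of the insulator protein, had 22.4, 18.7, 9.14 and 8.84 CPM in tamoxifen replicates 1 to 4 and 18.1, 13.3, 15.8 and 16.2 CPM in vehicle replicates 1 to 4. Its log2 fold change with tamoxifen was 0.39 in replicates 1 and 2 and -0.83 in replicates 3 and 4, and the difference of -1.22 ± 0.27 (SE) had an adjusted p of 0.407 in edgeR. The KRT19 peak at chr17:41535166-41535447, 7.0 kb from that luminal keratin gene, had 32.3, 35.6, 14.9 and 20.9 CPM with tamoxifen and 25.5, 30.8, 30.1 and 31.4 CPM with vehicle, also with an adjusted p of 0.407. Within replicates 1 and 2 and within replicates 3 and 4, 0 peaks were called for tamoxifen by edgeR (7959 and 8793 at an unadjusted p under 0.05).

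Tamoxifen and raloxifene are both selective estrogen receptor modulators, tamoxifen a triphenylethylene and raloxifene a benzothiophene, and both were given at 100 nM for 1 h. No peak was called between them in the fit of all groups (0 of 156745 by edgeR and by DESeq2, with 6147 and 3836 at an unadjusted p under 0.05). The nearest was an estradiol-raised peak inside TGIF2, a transcriptional repressor gene of the TGF-beta pathway, at chr20:36587377-36587616. It had 11.4, 10.7, 9.82 and 8.84 CPM with tamoxifen, against 16.7, 20.8, 17.6 and 15.01 CPM with raloxifene. All tamoxifen libraries lay below all raloxifene libraries and next to the vehicle libraries, which had 10.1, 10.1, 9.78 and 9.05 CPM. The log2 difference between tamoxifen and raloxifene was -0.80 with an interval of -1.10 to -0.50 and an adjusted p of 0.198 in edgeR. With the pair of replicates as a term (adjusted p 0.0225) and with only these 2 groups in the fit (adjusted p 0.0471), it was the 1 peak that edgeR called. The median log2 fold change of the estradiol-raised peaks was -0.09 between tamoxifen and raloxifene, and 0.09 between tamoxifen and fulvestrant, a receptor degrader. Over all tested peaks the medians were 0.003 and 0.009. The medians of the raised peaks were not split by pair of replicates, and an order of the drugs was not tested. The fulvestrant value includes replicate 4, a library with few counts.

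Against fulvestrant at the same dose and time, 0 peaks were called (8267 at an unadjusted p under 0.05 by edgeR, and 0 called by DESeq2 with 7181). Fulvestrant replicate 4 held 434598 counts, far fewer than any other library. With the pair of replicates as a term, edgeR called 3 peaks as higher with tamoxifen. One lies inside NYAP2, a neuronal adaptor gene, and had 27.5, 26.5, 19.9 and 22.1 CPM with tamoxifen and 15.6, 16.9, 10.3 and 4.71 CPM with fulvestrant, a log2 difference of 0.80 ± 0.14 (SE) in that fit. All tamoxifen libraries lay above all fulvestrant libraries there, and estradiol had raised this peak by 1.48 in starved cells. The other two lie 39.1 kb from CYP2A7 and 213 kb from GUCY1A2, with log2 differences of 0.62 and 0.97.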

How the data were processed

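The deposited table holds whole-number counts per peak, not normalized, for 24 libraries, and every column was mapped to a sample by its title. Per the submitters' processing notes, cutadapt 1.8.1, Bowtie2 2.4.4, SAMtools 1.9 and build hg38 were used; the peak caller, the counting rule, the treatment of duplicates and any shift for Tn5 were not given in the sources used here, nor whether peak starts count from 0 or 1. filterByExpr kept peaks (minimum count 10 and minimum total 15), which were scaled by TMM and fitted with edgeR 4.0.16 in R 4.3.3 (glmQLFit, legacy=FALSE, robust=TRUE) on 6 group means over all 24 libraries, and on 12 means of group by replicate pair for the split. Tests were two-sided quasi-likelihood F-tests, with Benjamini-Hochberg adjustment across the 156745 peaks and a threshold of 0.05. SE is the log2 fold change over the root of F, an approximation. CPM use TMM-scaled totals. DESeq2 1.42.0, other scalings, filters, sample sets, terms and leaving out each library were alternatives. The precision of a low peak is limited by its counts, since the libraries held 6725045 to 10225935 counts.

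Peaks were assigned by distance from their middle to a gene's interval (RefSeq, GRCh38.p14), within 50 kb for lists (10 kb as an alternative). Promoter windows of chromosome 8 were not used here. Shares are percent of a library's counts in tested peaks. The pipeline was tested on simulated data. No genome was used, so motifs were searched in promoter windows only. The members and lists were chosen with earlier results of these data known. Named peaks follow a rule: per gene of 8 lists the peak with the smallest estradiol p, the peaks with the smallest p for tamoxifen, for the replicate pairs and for their interaction, and the most abundant estradiol-raised peaks; others are marked as named after their values were seen.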

Additional observations from a re-analysis of the deposited data

Results flagged for a closer look

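In 7 of 174 groups of 4 libraries (4.02%), 1 library lay far from the other three by Dixon's criterion; chance gives about 1 in 20. Vehicle replicate 1 stood apart high at the RARA peak with 96.9 CPM, the MLPH peak with 33.5 CPM, the CCNE1 peak with 14.7 CPM and the HES1 peak with 68.1 CPM, and low at the BCAR3 peak with 6.60 CPM. Vehicle replicate 3 stood apart low at the KRT18 peak with 5.14 CPM. Tamoxifen replicate 4 stood apart low at the MED1 peak, inside FBXL20, with 0.532 CPM.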

How the results depend on the processing

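The comparison of tamoxifen with vehicle gave 0 called peaks under every alternative run, with RLE factors, total counts, loess offsets, no filter, only abundant peaks, only the compared groups, DESeq2, without the vehicle libraries with conflicting labels and without each library in turn. With only the compared groups in the fit, 1 peak was called within replicates 1 and 2 (in DIP2C, higher) and 4 within replicates 3 and 4 (in TTC1, higher; near PRKCQ, ZNF26 and KRT19, lower). With the replicate number as a block, tamoxifen against vehicle stayed at 0, while tamoxifen against raloxifene gave 1 peak and tamoxifen against fulvestrant 3. The replicate set as a term gave the same counts, 1 and 3. Tamoxifen against raloxifene gave 1 with only the compared groups, and tamoxifen against fulvestrant gave 0 to 1 when 1 library was left out, the 1 being near AOC1 without fulvestrant replicate 2. Same-numbered deviations of tamoxifen and vehicle correlated at 0.0527, 0.126, 0.095 and 0.0904, and other numbers within a pair at 0.0987 to 0.1197. Across the pairs the correlations were all negative, from -0.0411 to -0.1582. Deviations were taken from each group's own mean, so positive values within pairs force negative ones across them on average. By the values within pairs, the libraries went together by pair of replicates and not by single number. Between the pairs of replicates, DESeq2 called 512 peaks and the fit of only the compared groups 1983, against 1235; the cause was not tested. The log2 difference between tamoxifen and vehicle in the share of estradiol-raised peaks was -0.041 to -0.113 when 1 library was left out. With all libraries it was -0.074. List medians moved beyond their spread in 12 of 65 alternatives, and single named peaks changed sign in 117 of 1702, none of them called.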
